A study of Danio rerio with 2 samples.

Results

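Pituitary hormone genes are the 9 genes that encode the peptide hormones or hormone subunits of the anterior and intermediate pituitary examined here, together with the lineage factor gene pou1f1. The 10 genes were chosen by symbol, and each matched 1 of the 33733 genes of the table. Their transcripts were measured in whole zebrafish (Danio rerio) larvae of the AB/TL strain at 5 days post fertilisation (dpf). One group held larvae homozygous for lri25 and the other held wild-type siblings from the same clutch. Each group was 1 RNA library made from a pool of 20 larvae, so no value has a replicate error and no difference was tested. Which gene lri25 disrupts is not stated in the labels used here.

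The pituitary is a small gland below the hypothalamus, and each of its endocrine cell types is defined by the hormone it secretes. Somatotrophs make growth hormone, lactotrophs prolactin, corticotrophs and melanotrophs the precursor pro-opiomelanocortin, thyrotrophs thyroid stimulating hormone, and gonadotrophs luteinising and follicle stimulating hormone. Fish have a further cell type, the somatolactotroph of the pars intermedia, whose somatolactins are relatives of growth hormone and prolactin. Hypothalamic peptides and dopamine reach these cells and set how much hormone they release.

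Levels are in FPKM, fragments counted on a gene per kilobase of transcript and scaled to the size of the library, so they can be set side by side between genes. Growth hormone transcripts were close in the 2 libraries, while the somatolactin genes lay apart in opposite directions. The level of smtlb was 11.5-fold higher in the mutant library and that of smtla 5.27-fold lower. Each of these folds has a value below 1 FPKM as its denominator, so its size is uncertain. The common glycoprotein hormone subunit cga was 3.47-fold higher in the mutant library. Prolactin and the thyrotropin subunit tshb were lower there by less than 2-fold, and both gonadotropin beta subunits were listed at 0. Because RNA came from whole larvae, fewer cells of a type and less RNA per cell cannot be told apart.

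Differences between the libraries are given as log2((mutant FPKM + 1)/(wild-type FPKM + 1)), a scale that compresses the differences of low genes, while folds are plain ratios of FPKM. A gene entered this comparison when either library gave it 1 FPKM or more, which 7 of the 10 genes did. The threshold for counting a gene was a difference of 1 in either direction, which is 2-fold on that scale. Of the 7 genes, 2 were higher in the mutant library (smtlb and cga) and 1 was lower (smtla). Over all 20256 genes compared, 6.08% passed this threshold upwards and 7.12% downwards, 13.2% in all. The median difference of the 7 genes was -0.09, beside -0.01 over all genes compared. The background differs with level, and smtla, cga and tshb had their higher value from 1 to 5 FPKM. Among the 7498 genes whose higher value lay from 1 to 5 FPKM, 8.27% passed the threshold upwards and 9.62% downwards.

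**Figure D1:**
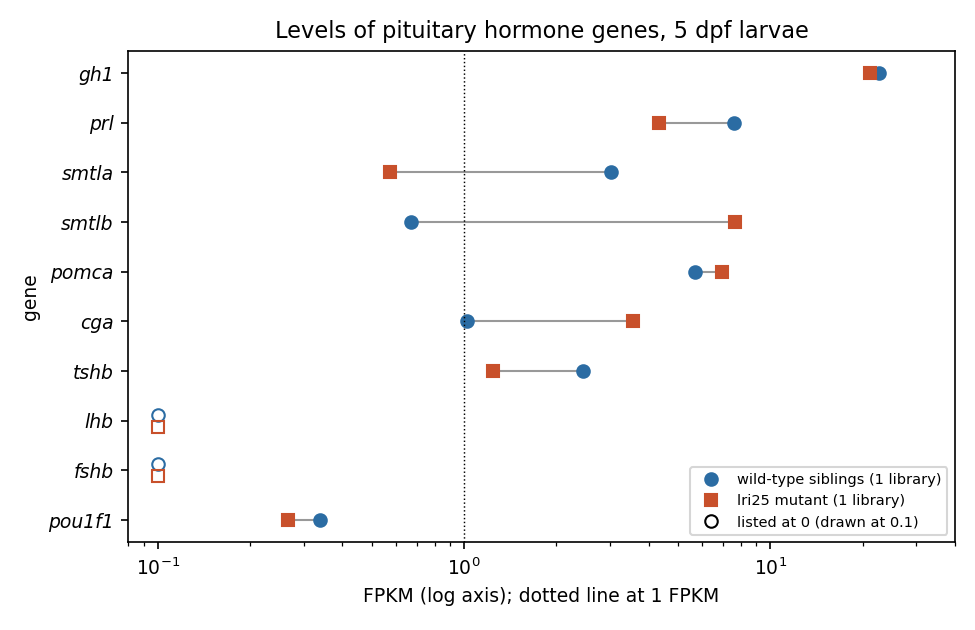
FPKM of each pituitary gene on a log axis, with a circle for the wild-type library and a square for the lri25 mutant library, 1 library each. The longest line between libraries belongs to smtlb, at 0.669 and 7.68 FPKM, while gh1 lies almost on itself at 22.5 and 21.2 FPKM. Open symbols mark lhb and fshb, which were listed at 0 in both libraries.

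Growth hormone, gh1 (ENSDARG00000038185, chromosome 3, 22540799 to 22545974, build Zv9), drives body growth and was the most abundant of these genes in both libraries. It stood at 22.5 FPKM in wild-type siblings and 21.2 FPKM in mutants, a difference of -0.09 on the log2 scale. Its level was above that of 83.1% of the genes listed above 0 in the wild-type library and of 82.2% in the mutant library. Among the 3710 genes whose higher value lay from 20 to 100 FPKM, the central 95% of differences ran from -1.51 to 1.31, and 4.53% of these genes passed 2-fold upwards and 4.85% downwards.

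Prolactin, prl (ENSDARG00000037946, chromosome 3, 32478893 to 32482876), is the hormone that lets fish retain ions in fresh water. Its level was 7.63 FPKM in wild-type siblings and 4.33 FPKM in mutants, 1.76-fold lower. The difference of -0.70 was short of 2-fold and inside the central 95% of the 8039 genes whose higher value lay from 5 to 20 FPKM, which was -1.55 to 1.38. Both gh1 and prl sit on chromosome 3 and encode hormones of cells that depend on pou1f1. The level of gh1 was 2.95 times that of prl in the wild type and 4.89 times in the mutant, a ratio within each library that does not depend on how the libraries were scaled.

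The somatolactin genes showed the widest separation. Somatolactin alpha, smtla (ENSDARG00000038191, chromosome 18, 46620558 to 46629935), is known in medaka for its part in the development of pigment cells. It stood at 3.01 FPKM in wild-type siblings and 0.572 FPKM in mutants, a difference of -1.35. It entered the comparison only through the wild-type library. That value lay inside the central 95% of genes from 1 to 5 FPKM, which ran from -1.59 to 1.53. With a pseudocount of 5 in place of 1 the smtla difference was -0.52 and no longer 2-fold.

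Somatolactin beta, smtlb (ENSDARG00000017251, chromosome 10, 40678465 to 40685254), went the other way. Its level was 0.669 FPKM in wild-type siblings and 7.68 FPKM in mutants, a difference of 2.38. It entered the comparison only through the mutant library. This was the single hormone gene outside the central 95% of its level class, in which 4.96% of genes passed 2-fold upwards and 5.98% downwards. The mutant value also set that class. The difference stayed above 1 under every pseudocount and scaling tried, from 1.16 to 3.34, and a floor cannot change it. Each setting reuses the same wild-type value below 1 FPKM, so this range says nothing about the spread between samples. Within the wild-type library smtla was 4.50 times the level of smtlb, and within the mutant library smtlb was 13.4 times the level of smtla. Each of these ratios has a value below 1 FPKM as its denominator, so its size is uncertain.

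**Figure D2:**
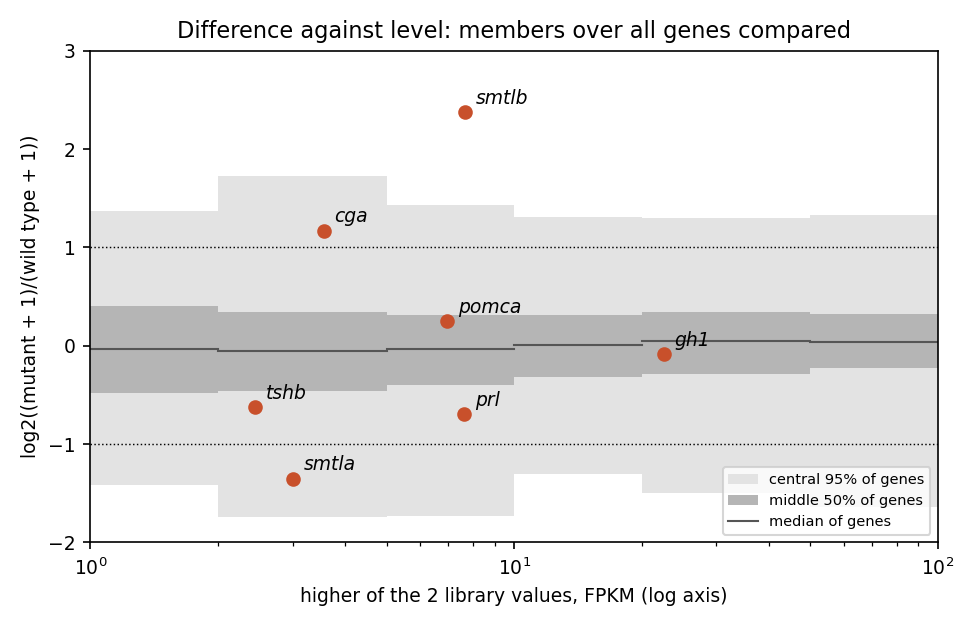
Difference between the libraries on the log2(FPKM + 1) scale against the higher of the 2 values, for the 7 pituitary genes compared (points), over the central 95%, middle 50% and median of all genes in classes of level (grey). Only smtlb, at 2.38, lies outside the central 95%, and gh1, at -0.09, and pomca, at 0.25, lie within the middle 50%.

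Pro-opiomelanocortin, pomca (ENSDARG00000043135, chromosome 17, 33412538 to 33437472), encodes the precursor of adrenocorticotropin, melanocyte stimulating hormone and beta-endorphin. It stood at 5.68 FPKM in wild-type siblings and 6.95 FPKM in mutants, 1.22-fold higher, with a difference of 0.25. Its locus in the table is shared with si:rp71-36d5.4, at 1.73 and 1.11 FPKM, so the split of reads between these genes is uncertain. The gene is also expressed by feeding-related neurons of the hypothalamus, which whole larvae contain. The hypothalamic neuropeptide genes agrp, npy, pmch and pmchl summed to 23.9 FPKM in wild-type siblings and 19.7 FPKM in mutants. They did not move together. With the wild-type value first, agrp was at 8.69 and 3.34 FPKM and pmch, at a shared locus, at 4.08 and 3.13 FPKM. In the same order npy was at 7.66 and 7.23 FPKM and pmchl at 3.43 and 6.03 FPKM. These genes are not taken here as markers of the neurons that express pomca. The part of such neurons in the pomca level was not tested.

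Thyroid stimulating hormone is a pair of the common subunit from cga and the specific beta subunit from tshb. The subunit genes lay on opposite sides. The level of cga (ENSDARG00000040479, chromosome 17, 49595160 to 49599351) was 1.02 FPKM in wild-type siblings and 3.55 FPKM in mutants, a difference of 1.17. With a pseudocount of 5 it was 0.51 and no longer 2-fold. The level of tshb (ENSDARG00000033726, chromosome 6, 49021741 to 49025896) was 2.44 FPKM in wild-type siblings and 1.24 FPKM in mutants, 1.97-fold lower, with a difference of -0.62. Both differences lay inside the central 95% of genes from 1 to 5 FPKM. The level of tshb was 2.39 times that of cga in the wild type, and the level of cga was 2.87 times that of tshb in the mutant. Each of these ratios has a value near 1 FPKM as its denominator, so its size is uncertain.

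The beta subunits specific to the gonadotropins, lhb (ENSDARG00000035709, Zv9_scaffold3525, 54871 to 57837) and fshb (ENSDARG00000010841, chromosome 7, 33940215 to 33946224), were listed at 0 in both libraries. These defining markers of gonadotrophs were therefore not detected, and cga, which gonadotrophs share with thyrotrophs, cannot be assigned to either cell type from these values. The authors' deposited table marks both as not tested, as it does 19120 genes, with the other 14613 marked OK. An exact 0 does not show absence, because the depth of either library is unknown.

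The transcription factor gene pou1f1 (ENSDARG00000058924, chromosome 9, 19750931 to 19780028), needed in zebrafish for somatotrophs, lactotrophs and thyrotrophs, was the lowest of the genes above 0. It stood at 0.339 FPKM in wild-type siblings and 0.266 FPKM in mutants, below the level for comparison in both. Only 3.33% of genes above 0 had a lower level in the wild-type library and 3.10% in the mutant library.

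The order of levels differed between the libraries below the top. In the wild type it ran gh1, prl, pomca, smtla, tshb, cga, smtlb and pou1f1. In the mutant it ran gh1, smtlb, pomca, prl, cga, tshb, smtla and pou1f1. With 1 library per group, neighbours in either order cannot be told apart beyond a replicate spread. Summed over these genes the level was 43.4 FPKM in wild-type siblings and 45.7 FPKM in mutants, and without gh1 it was 20.8 and 24.6 FPKM. The share of gh1 in the sum was 52.0% in wild-type siblings and 46.3% in mutants, that of prl 17.6% and 9.46%, and that of pomca 13.1% and 15.2%. The share of smtlb was 1.54% and 16.8%, and that of smtla 6.95% and 1.25%.

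**Figure D3:**
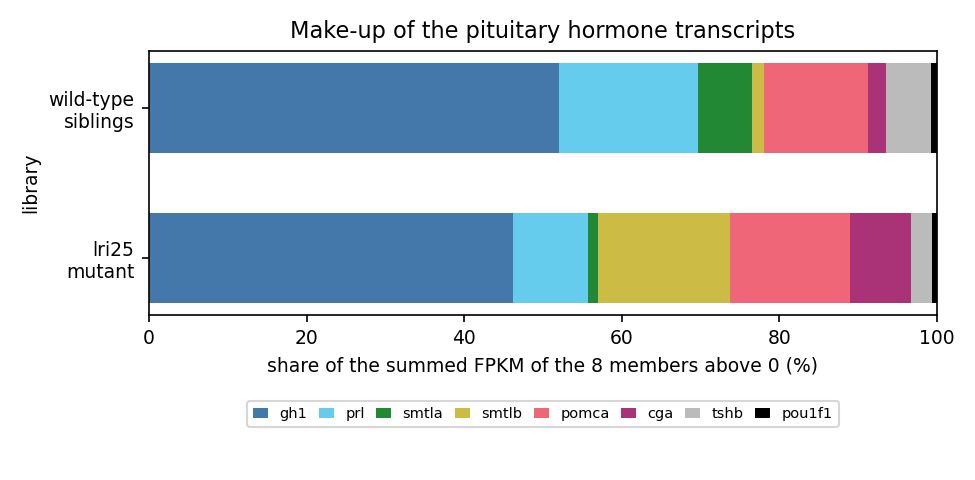
Share of each gene in the summed FPKM of the 8 pituitary genes above 0, with 1 bar for each library. The gh1 segment is the largest in both, at 52.0% and 46.3%, and smtlb takes 1.54% of the wild-type bar and 16.8% of the mutant bar.

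How few fragments stand behind the low values can be read in part from the ratios. Of 510 genes detected below 0.5 FPKM in each library, 206 gave a ratio of mutant to wild type from 0.7 to 0.83, with a median of 0.765. The wider window from 0.5 to 1.1 held 266 genes with a median of 0.765 as well, and among ratio bins 0.01 wide the fullest was 0.76 to 0.77, with 75 genes. Another 88 genes lay from 1.4 to 1.6 around a median of 1.53, as 2 fragments against 1 would give. A ratio of 0.765 is what 1 fragment in each library would give if the mutant library were 1.31 times deeper. Divided by this step, the smtla ratio was 0.248, and the smallest whole-number pair within 3% was 1 fragment in the mutant against 4 in the wild type. The smtlb ratio became 14.99, as 15 fragments against 1 would give. For cga the smallest pair was 9 against 2, for tshb 2 against 3, and for pou1f1 1 against 1. At higher levels, prl also gave a small pair, 3 against 4, and pomca gave 8 against 5. Multiples of a pair give the same ratio, and ratios of larger whole numbers lie close together, so these pairs are a description and not recovered counts.

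The authors' deposited table marks 6 of the 10 genes as not tested (smtla, cga, tshb, lhb, fshb and pou1f1). For the other 4 the authors' deposited table gives p-values of 0.873 for gh1, 0.342 for prl, 0.719 for pomca and 0.220 for smtlb, each with a q-value of 0.996. Those values compare 2 libraries and not the genotypes, and 0.465% of the 14613 genes tested in the authors' deposited table were marked significant.

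Genes around these hormones were described with 10 lists written by function, of 194 different symbols in all, and where a pair of values is given for a gene the wild-type value comes first. The table held 172 genes with these symbols, and 137 were compared, of which 10 (7.30%) were higher by 2-fold or more and 19 (13.9%) lower by as much. Over all genes compared these shares were 6.08% and 7.12%, against which the counts of each list below are to be read. The listed genes had a median difference of -0.22, beside -0.01 over all genes compared. General neuronal markers had a median of -0.48, with 8 of 9 genes below 0, beside 10336 of all 20256 genes compared. One of them passed 2-fold downwards, the synaptic gene snap25b, named after its values were seen, at 108 and 45.0 FPKM. The most abundant were snap25a, a synaptic fusion protein, at 211 FPKM in wild-type siblings and 151 FPKM in mutants and stmn1b, at a shared locus, at 336 and 248 FPKM. Reference genes of muscle, skin and housekeeping were abundant, which fits the label of whole body, and had a median of -0.01, with the muscle genes pvalb2 at 19709 and 22757 FPKM and actc1b at 11817 and 11570 FPKM. Some axis genes are also expressed in the retina, and photoreceptor transcripts were far lower in the mutant library. All 16 photoreceptor entries matched from a list written with earlier results known were at least 2-fold lower there. Among them crx was entered under separate identifiers, at 31.5 and 3.64 FPKM and at 25.2 and 2.65 FPKM. The summed level of all 16 entries was 6481 FPKM in wild-type siblings and 245 FPKM in mutants, with none at 0 in either library. The part of these entries in the differences of the axis genes was not tested.

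Only 4 genes of the list of paralogs were found, and 3 were compared. The second pro-opiomelanocortin gene pomcb, at a shared locus, was listed at 0 in wild-type siblings against 1.71 FPKM in mutants. The authors' deposited table marks pomcb as not tested. The wild-type library listed 11754 genes at 0 and the mutant library 11281, so a 0 beside a low value does not show absence. The thyrostimulin beta subunit gene gphb5, a relative of tshb, was 3.25-fold lower, at 9.87 and 3.04 FPKM. The remaining gene, prl2, a second prolactin gene named after its values were seen, was at 1.29 and 0.677 FPKM.

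Transcription factors of pituitary development had a median of -0.34, and of 27 genes 4 were lower by 2-fold or more and 1 higher. The lower genes were the homeobox factors isl1, at 26.0 and 10.04 FPKM, otx2, at 24.1 and 8.12 FPKM, six6b, at 8.78 and 3.71 FPKM, and rx3, at 3.73 and 0.946 FPKM, of which otx2 and six6b are at shared loci. All of these are also expressed in the eye or its precursors, whose part in their differences was not tested. Other six genes of the list, named after their values were seen, lay on both sides and short of 2-fold. The difference was -0.08 for six6a and 0.31 for six3b. At shared loci, it was 0.02 for six1b and -0.95 for six3a. The early pituitary factor lhx4, named after its values were seen, was also short of 2-fold, at 4.51 and 3.06 FPKM. The corticotroph factor tbx19, named in the same way, was at 0 and 0.341 FPKM.

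Hypothalamic peptides and dopamine-synthesis genes lay on both sides, with 7 of 30 genes higher by 2-fold or more, 5 lower and a median of -0.11. Of the 12, 4 higher genes were listed at 0 in the wild type and 2 lower genes at 0 in the mutant. Galanin (galn) was 3.05-fold higher, at 6.58 and 20.1 FPKM. The prolactin releasing hormone gene prlh2 was 3.12-fold higher, at 4.31 and 13.4 FPKM, and gnrh2, a gonadotropin releasing hormone gene of the midbrain, was at 1.59 and 4.31 FPKM. Lower were the somatostatin gene sst3, at 35.1 and 14.9 FPKM, the melanocortin antagonist agrp, at 8.69 and 3.34 FPKM, and the urotensin gene uts1, at 3.44 and 1.19 FPKM. Releasing factors for the hormones above, named after their values were seen, included ghrh for growth hormone, listed at 0 and then at 3.46 FPKM. The authors' deposited table marks ghrh as not tested, and its 0 does not show absence. The corticotropin releasing hormone gene crhb was at 6.18 and 3.63 FPKM, and the thyrotropin releasing hormone gene trh at 3.65 and 2.42 FPKM.

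Receptors that pituitary cells use for these factors were listed with the binding protein gene crhbp, at 22.1 and 13.7 FPKM. The listed genes were mostly low, and 12 of the 23 found were not compared. Among the 11 compared, 0 passed 2-fold upwards and 2 downwards, with a median of -0.24. Both lower genes encode dopamine D4 receptors. The level of drd4b was 3.70 FPKM in wild-type siblings and 0.330 FPKM in mutants, and that of drd4a, at a shared locus, 2.90 and 0.219 FPKM. Dopamine D4 receptors are also expressed in the retina, whose part in these differences was not tested. Dopamine D2 receptor genes, named after their values were seen, were lower but did not pass the threshold. The level of drd2b was 1.75 and 1.33 FPKM and that of drd2a 1.08 and 0.448 FPKM. That of drd2l, 0.616 and 0.482 FPKM, was too low to be compared.

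Receptors through which tissues respond to pituitary hormones were listed with the accessory protein genes mrap and mrap2a. The list had a median of -0.35, and 1 of 9 genes was lower by 2-fold or more, with 0 higher. That gene was mc4r, a melanocortin receptor, at 2.06 and 0.396 FPKM. Other receptors are named after their values were seen. The growth hormone receptor ghrb was at 53.6 and 41.7 FPKM, and the prolactin receptor prlra was at 5.29 and 2.75 FPKM. The adrenocorticotropin receptor mc2r was listed at 0 in both libraries, and the thyrotropin receptor tshr was at 0.202 and 0.461 FPKM.

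In the thyroid axis 3 of 12 genes were lower by 2-fold or more and 1 higher, with a median of -0.16. The thyroid hormone receptor genes thrb, at 13.0 and 5.31 FPKM, and thraa, at 7.28 and 2.08 FPKM and a shared locus, were lower. So was the thyroid and forebrain factor nkx2.1a, at 2.56 and 0.566 FPKM. Another thyroid hormone receptor gene, thrab, at a shared locus and named after its values were seen, went the other way. It was at 2.43 and 3.30 FPKM, short of 2-fold. In zebrafish thrb is also expressed in red cones, whose part in its difference was not tested. The thyroid hormone inactivating deiodinase dio3a was listed at 0 in wild-type siblings against 3.02 FPKM in mutants. The authors' deposited table marks dio3a as not tested, and its 0 does not show absence. The thyroglobulin gene tg, named after its values were seen, was below 1 FPKM in both libraries, at 0.661 and 0.584 FPKM.

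In the interrenal axis, the fish counterpart of the adrenal cortex axis, 0 of 9 genes were 2-fold apart on the log2(FPKM + 1) scale, with a median of -0.23. With a pseudocount of 0.1 the count was 3 lower, a setting at which 2219 of all 20256 genes compared were lower by 2-fold or more. All 3 genes were near 1 FPKM and are named after their values were seen. They were the steroid enzyme genes cyp11c1, at 1.16 and 0.227 FPKM, and cyp17a2, at a shared locus and at 1.05 and 0.205 FPKM, and the steroidogenic factor gene nr5a1a, at 1.39 and 0.397 FPKM. Its most abundant genes were the cortisol inactivating enzyme hsd11b2, at 45.2 and 84.4 FPKM, and the glucocorticoid receptor nr3c1, at 14.9 and 12.9 FPKM. Genes of prohormone processing and secretory granules, which pituitary cells share with neurons and other endocrine cells, had a median of -0.22. Of 16 genes 14 lay below 0, beside 10336 of all 20256 genes compared. At least 2-fold lower were the granule protein scg3, at 58.0 and 28.2 FPKM, and the vesicle GTPase rab3aa, at 20.7 and 9.82 FPKM. Both were just past the threshold, and after scaling to the upper quartile of genes above 0 they stood at -0.99 and -0.98.

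**Figure D4:**
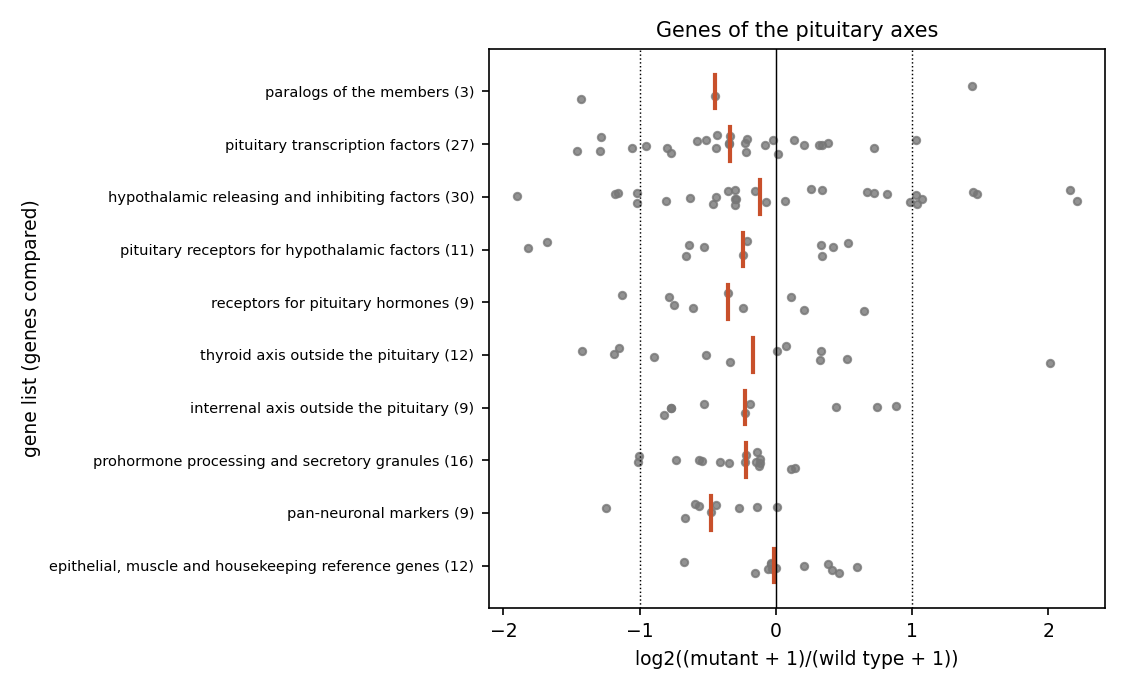
Difference between the libraries on the log2(FPKM + 1) scale for the genes compared in each of 10 lists around the pituitary axes, 1 point for each gene, with a bar at each list's median. The medians run from -0.48 for neuronal markers to -0.01 for the reference genes, and points past the dotted lines are at least 2-fold apart.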

How the data were processed

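One table of 33733 genes was analysed. Per the file headers it holds a value for each library, taken as FPKM deposited by the authors, and a p-value and a q-value per gene from the authors' own comparison. The submitters' processing notes list build Zv9, CASAVA and Bowtie without versions. Neither the program behind the FPKM nor the number of fragments per library is stated in those notes, so no counting interval was computed. Column codes for wild type and mutant were matched to the labels' titles.

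In a gene name table, the first identifier column gave the listed symbol for 0 of 10 hormone genes and the second for 8 of 10. The second was therefore used, and its identifiers without the same symbol there were taken as listed. Starts were written 1-based, since 4 of 4 mitochondrial genes had a length equal to end minus start. No Zv9 annotation was used, so exons are not described. The strand of the RNA is not stated.

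Differences were computed with a pseudocount of 1 and a floor of 1 FPKM, in Python 3.11.15 with pandas 2.3.3, and the counting was tested on simulated data. No test was run. The hormone genes and the lists were chosen with earlier results of these data known. By rule, each list's genes past 2-fold are named, up to 6 by mean level. Where a list had none, and for the neuronal and reference lists, its 2 most abundant are named. Some genes that this rule names are not reported here. Alternatives were other pseudocounts, floors and scalings, and leaving out shared loci.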

Additional observations from a re-analysis of the deposited data

How the results depend on the processing

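With a pseudocount of 5 the hormone genes at least 2-fold higher numbered 1 and those lower 0, and with a floor of 5 FPKM, which left 4 genes, they also numbered 1 and 0. Their median difference was 0.082 with that floor and -0.36 without genes at a shared locus, where pomca was left out. The genes of the 10 lists, neuronal markers and reference genes included, numbered 1 higher and 4 lower with a pseudocount of 5, and 2 higher and 11 lower with a floor of 5 FPKM, which left 90 genes. Of all 20256 genes compared, 1866 were higher and 2219 lower at a pseudocount of 0.1, and 296 and 361 at 5. With the floor at 5 FPKM the counts were 612 and 721 of 12758 genes. Of 45 alternative values for the 7 hormone genes compared, 43 kept their side of the 2-fold threshold, and none changed direction across it. Those that did not were smtla at -0.52 and cga at 0.51, with a pseudocount of 5. Of 180 values for 28 other named genes, 160 kept their side and 20 no longer reached 2-fold. A floor, or leaving out shared loci, cannot change the difference of a single gene. Only the alternative pseudocounts and scalings could move these values, so the counts that kept their side overstate how stable the differences are. Scaling moved all differences by 0.03 at most. No paired analysis was possible because each group had 1 library. Depth limits what low values can show, those of smtla, smtlb, cga, tshb and pou1f1 among them, and lhb and fshb were not detected.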
